A study of Mus musculus with 8 samples.

Results

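Complement was described here in liver sinusoidal endothelial cells (LSECs), the fenestrated cells that line the hepatic sinusoids, through 37 genes that encode complement components, regulators and receptors, including Susd4. The genes were picked by name from knowledge of the cascade, all 37 were found among the 25428 gene rows of the array table, and none was chosen by a threshold on its value. Susd4 had been put in the list with its change in these data already known, so its result is not independent evidence about complement as a group. Female mice of the strain labelled C57BL/6J gave LSECs at 2 months of age by CD146 bead selection, each sample was a pool of 2 mice, and RNA was profiled on Affymetrix MoGene-2_0-st arrays. The 4 Ctnnb1OE-EC pools came from mice carrying Clec4g-iCre tg/wt and Ctnnb1(Ex3) fl/wt, in which Cre removes exon 3 of 1 Ctnnb1 allele and stabilises β-catenin, the transducer of canonical Wnt signalling. The 4 Ctrl pools are labelled wildtype, and which alleles those mice carried is not given in the sources used here. The Clec4g driver is also active in endothelium of the heart, so the LSECs came from mice in which another vascular bed was altered as well.

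Complement is a cascade of plasma proteases that marks particles for uptake, recruits leukocytes and punches pores in membranes. The classical pathway starts from C1q, the lectin pathway from mannose-binding lectins and ficolins, and the alternative pathway amplifies C3 cleavage on surfaces. All of them meet at the C3 and C5 convertases, after which C5 to C9 assemble the membrane attack complex. Hepatocytes make most plasma complement, Kupffer cells and other macrophages make C1q and carry receptors, and host cells protect themselves with regulators on their surface.

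Susd4, the gene with the largest difference among the 37, encodes a membrane protein with sushi repeats, the module shared by complement regulators, and was described in human as an inhibitor of complement activation. It lies on chromosome 1 in RefSeq (build GRCm38.p6), where its gene record begins at base 182764044 of the plus strand. The 78 bases just before that base, chr1:182763966-182764043, are shown because this was the only one of the 37 genes that passed the test. The stretch is the upstream end of a promoter window placed on a later start site, base 182764216. Capitals mark CpG dinucleotides.
Susd4: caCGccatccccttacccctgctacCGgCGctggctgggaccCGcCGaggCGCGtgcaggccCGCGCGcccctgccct
This stretch held 10 CpG dinucleotides and its GC content was 78.2%. RefSeq promoter windows of 300 bases (250 before and 50 after a start) were at hand for 28 of the 37 genes, 32 windows in all. The TCF/LEF core, by which β-catenin's DNA-binding partners recognise DNA, was searched on both strands as CTTTG followed by 2 bases that are each A or T. It was present in 4 of these 32 windows and in 0 of the 2 windows of Susd4, against 16.9% of all 32851 windows. These letters are therefore not in those 2 windows, and nothing is drawn from that about the factor.

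The values were log2 intensities from robust multiarray analysis and quantile normalization, so every pool had the same median of 4.20. Correlations between pools across rows were 0.975 to 0.992. Principal component 1 (30.6% of the variance) separated Ctnnb1OE-EC replicates 3 and 4 from the remaining 6 pools. Axin2, a target of β-catenin, was higher in Ctnnb1OE-EC pools (log2 fold change 2.14, limma with Benjamini-Hochberg adjustment, adjusted p = 0.00136). Ctnnb1 itself had a log2 fold change of 0.34 (limma adjusted p = 0.361), in a single row for the gene that does not resolve the removed exon. The 10 LSEC markers averaged 11.72 to 11.95 in Ctnnb1OE-EC pools and 12.08 to 12.20 in Ctrl pools. Of these, 1, Lyve1, was called lower, at a log2 fold change of -1.78 against a median of -0.16 for the 10. The 5 pan-endothelial markers averaged 12.16 to 12.21 in Ctnnb1OE-EC pools and 12.19 to 12.24 in Ctrl pools. Markers of hepatocytes and of Kupffer cells and macrophages averaged above the array median in every pool and varied among pools of 1 genotype. The mean of 8 hepatocyte markers was 10.60, 9.15, 7.25 and 7.92 in Ctnnb1OE-EC replicates 1 to 4 and 9.91, 8.33, 8.44 and 10.11 in Ctrl replicates 1 to 4. The mean of 7 Kupffer cell and macrophage markers was 8.60, 7.32, 8.50 and 9.18 in Ctnnb1OE-EC pools and 9.34, 8.81, 7.40 and 8.42 in Ctrl pools. In pooled cells, fewer cells of a type and less RNA per cell cannot be told apart.

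Of the 37 genes, 1 passed an adjusted p of 0.05 over all rows (Susd4, higher in Ctnnb1OE-EC) and 0 were called lower. Over all 25428 rows, 0.92% were called, 0.535% higher and 0.385% lower. A plain one-way analysis of variance computed here, the kind of test the methods name, called 1 of the 37, and 20 rows in all. The settings of the study's own software are not given in the sources used here, so this is not its list of genes. At an unadjusted limma p under 0.05, 2 of the 37 were higher (Susd4 and Cd93) and 3 lower (Masp1, Cr1l and Csmd1), against 11.5% of all rows in either direction. The groups did not overlap for 4 genes, Susd4, Cr1l, Masp1 and Cd59a, against 7.59% of all rows. The median log2 fold change of the 37 was -0.18, against -0.01 over all rows, with 11 means higher and 26 lower. Over all rows, 46.4% had a higher mean. For 24 of the 36 genes that were not called, the sign turned in at least 1 alternative, so these directions are not firm. The median within-group SD was 0.51 for the 37 genes and 0.18 over all rows, so pools of 1 genotype differed more in these genes than in the median row. The rows were not matched for intensity, and 8 of the 37 genes averaged below the array median, against 12711 of all 25428 rows. With 4 pools against 4, an exact permutation test can reach no two-sided p below 0.0286.

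**Figure D1:**
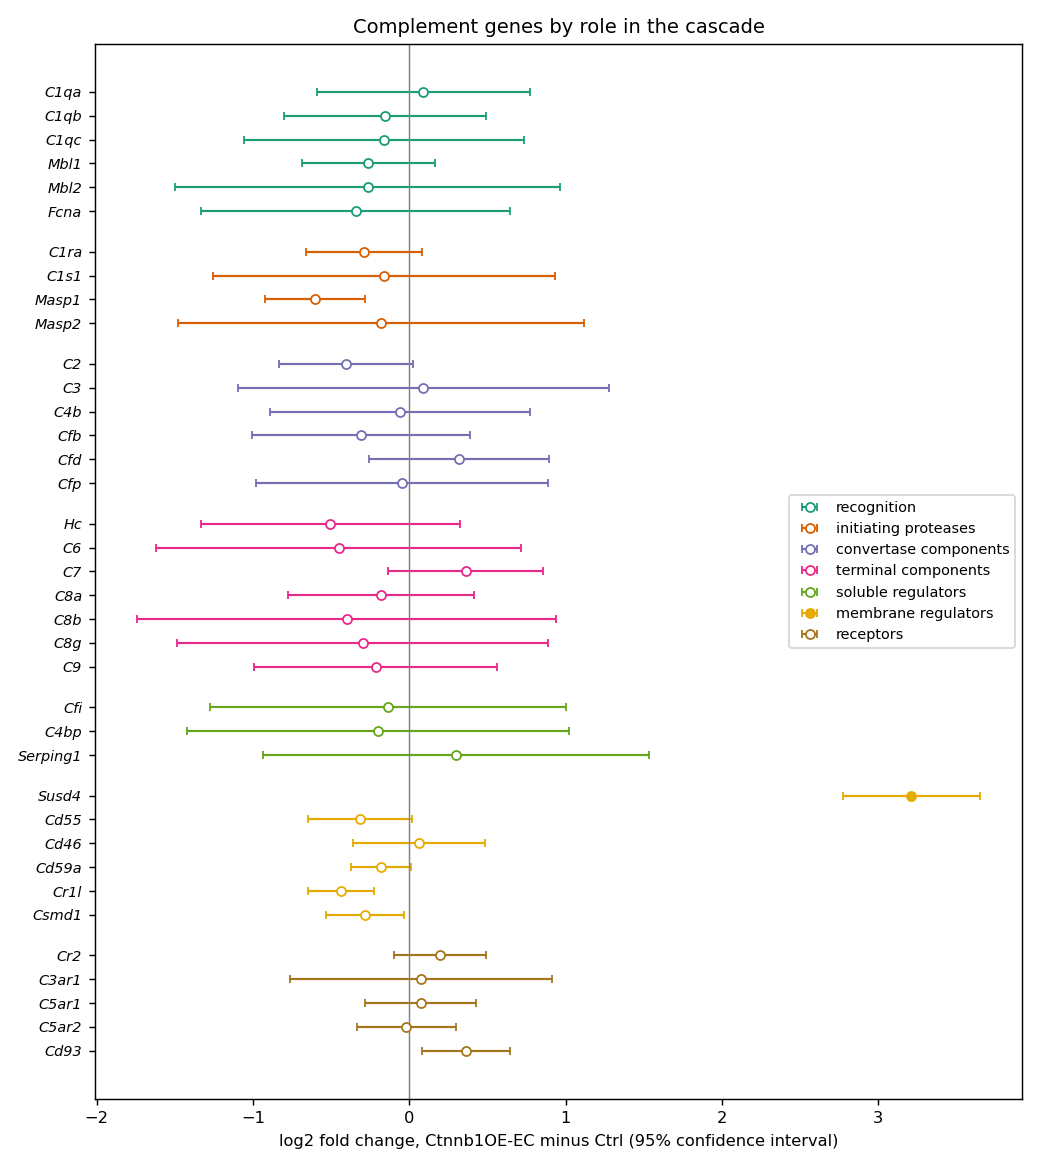
Log2 fold change, Ctnnb1OE-EC minus Ctrl, with its 95% confidence interval from limma (x axis) for each of the 37 genes (y axis), coloured by role; the filled point passed an adjusted p of 0.05 over all rows. Susd4 stands at 3.21, and the other 36 lie between -0.60 and 0.36.

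The membrane regulators keep complement off host cells, and they held the only call. Susd4 was at 7.91, 7.47, 8.18 and 8.09 in Ctnnb1OE-EC replicates 1 to 4, against 4.53, 4.39, 4.78 and 5.12 in Ctrl replicates 1 to 4. Every Ctnnb1OE-EC pool was above every Ctrl pool, and the Ctrl values lay close to the array median, where signal and background are hard to separate. The means were 7.91 ± 0.32 and 4.70 ± 0.32 (SD, n = 4 each), a log2 fold change of 3.21 (SE 0.20, 95% interval 2.77 to 3.65) or 9.26-fold. limma with Benjamini-Hochberg adjustment gave an adjusted p of 0.000173, and the exact permutation p was 0.0286, the smallest it can give. Susd4 passed in all 16 alternatives tried, at log2 fold changes of 2.99 to 3.36. Among the Ctnnb1OE-EC pools it was lowest in replicate 2, the pool with the lowest macrophage marker mean, 7.32. Without that pool the log2 fold change was 3.36. Ctrl replicate 1 had the highest macrophage marker mean, 9.34, with Susd4 at 4.53. The part of other cells in the Susd4 values was not tested.

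Cr1l, known in mouse as Crry, speeds the decay of convertases and helps cleave C3b and C4b on rodent cells. It was at 8.24, 8.01, 8.10 and 8.30 in Ctnnb1OE-EC pools and at 8.57, 8.53, 8.66 and 8.63 in Ctrl pools. The groups did not overlap, and both were tight. The log2 fold change was -0.43 (SE 0.09), with an adjusted p of 0.0891 in limma and an exact permutation p of 0.0286. It missed the threshold, and passed it in 1 alternative, the trended and robust variance prior (limma adjusted p = 0.0479).

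Cd59a anchors in the membrane and blocks C9 from joining the pore. Its values were 11.27, 11.20, 11.30 and 11.18 in Ctnnb1OE-EC pools and 11.34, 11.35, 11.47 and 11.52 in Ctrl pools. The groups were separate by a narrow margin (log2 fold change -0.18, limma adjusted p = 0.465). Cd55, which dissociates the convertases, was at 9.16, 9.52, 9.01 and 9.04 in Ctnnb1OE-EC pools and at 9.73, 9.35, 9.64 and 9.27 in Ctrl pools. These ranges overlapped (-0.31, limma adjusted p = 0.470). Csmd1, a very large sushi and CUB protein best known in brain, was at 3.33, 3.48, 3.55 and 3.42 in Ctnnb1OE-EC pools and at 3.53, 3.69, 3.97 and 3.72 in Ctrl pools. All 8 values were below the array median (log2 fold change -0.28, limma adjusted p = 0.366). Cd46, a cofactor for C3b cleavage whose expression is narrow in mouse, averaged 4.08 ± 0.41 in Ctnnb1OE-EC pools and 4.02 ± 0.13 in Ctrl pools (SD, n = 4 each), also near the array median.

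**Figure D2:**
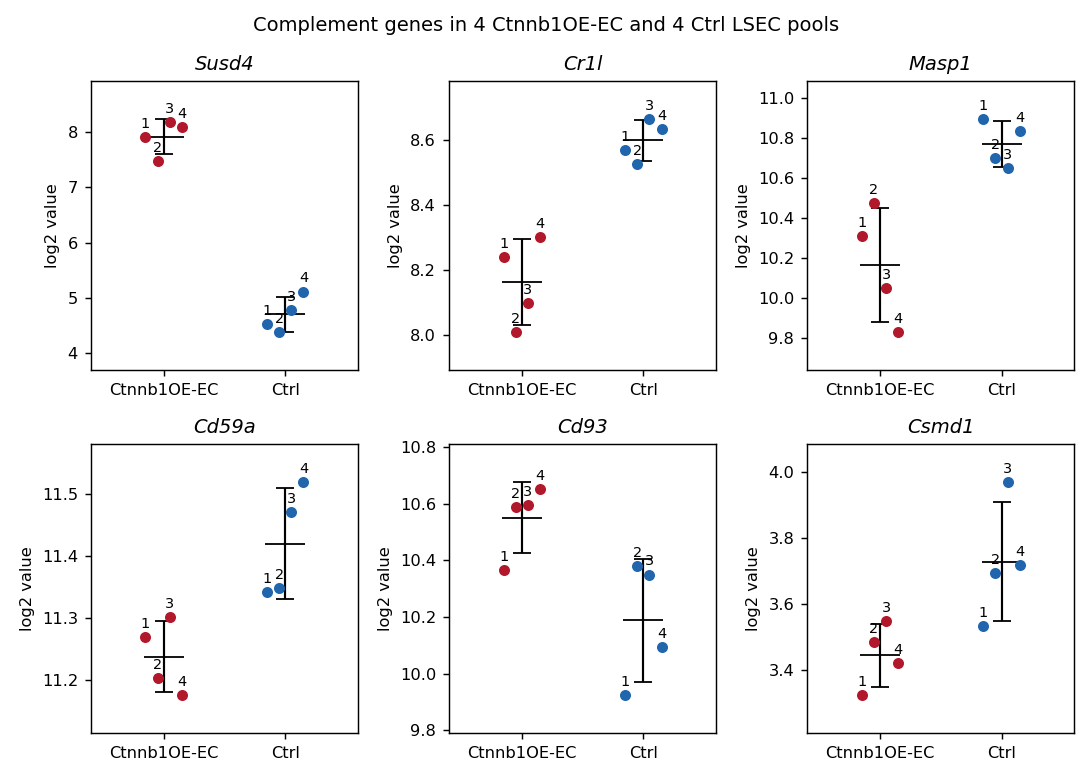
Log2 values (y axes, each with its own range) of 6 complement genes in the Ctnnb1OE-EC pools (left in each panel) and the Ctrl pools (right); points are pools, numbered by replicate, and bars give the mean and SD. Susd4, Cr1l, Masp1 and Cd59a show no overlap between the groups, while Cd93 and Csmd1 overlap slightly.

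The initiating proteases are activated once a recognition molecule has bound, and they start the classical and lectin pathways. Of these 4, 0 passed the test, and all 4 had lower means in Ctnnb1OE-EC pools. Over all rows, 46.4% had a higher mean. For Masp2 and C1s1 the sign turned when certain single pools were left out. Masp1, a protease of the lectin pathway, was at 10.31, 10.47, 10.05 and 9.83 in Ctnnb1OE-EC pools and at 10.89, 10.70, 10.65 and 10.83 in Ctrl pools. No pool overlapped, and the 2 lowest values were those of Ctnnb1OE-EC replicates 3 and 4. The log2 fold change was -0.60 (SE 0.14), with a limma adjusted p of 0.118 and an exact permutation p of 0.0286. Without those 2 pools it was -0.38 (limma adjusted p = 0.349). Adrenal cortex markers averaged higher in those 2 pools, 5.84 and 4.90, against 2.90 to 3.36 in the other 6. Neutrophil and monocyte markers were higher there too, averaging 6.06 and 6.15, against 4.17 to 5.36 in the other 6. Hepatocyte markers averaged 7.25 and 7.92 there, against 8.33 to 10.60 in the other 6. Pancreatic acinar cell markers averaged 3.74 and 4.40 there, against 3.84 to 8.69 in the other 6. The part of these markers in the Masp1 values was not tested.

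Masp2, the other lectin-pathway protease, was at 6.43, 4.87, 3.77 and 3.75 in Ctnnb1OE-EC pools and at 5.31, 4.37, 4.31 and 5.54 in Ctrl pools. C1s1, a protease of the C1 complex, was at 5.83, 5.28, 5.56 and 5.26 in Ctnnb1OE-EC pools and at 6.32, 6.13, 3.91 and 6.23 in Ctrl pools. In both genes the groups overlapped, and Ctrl replicate 3 was far below the other Ctrl pools for C1s1 only. C1ra, its partner protease, averaged 5.21 ± 0.35 in Ctnnb1OE-EC pools and 5.50 ± 0.11 in Ctrl pools (SD, n = 4 each; limma adjusted p = 0.566).

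Among the recognition molecules, 0 of 6 passed, and the 3 chains of C1q moved together across pools. C1qa was at 8.90, 8.32, 8.79 and 9.73 in Ctnnb1OE-EC pools and at 9.35, 9.05, 8.47 and 8.52 in Ctrl pools. C1qb was at 10.28, 9.35, 10.16 and 10.91 in Ctnnb1OE-EC pools and at 10.52, 10.56, 10.13 and 10.10 in Ctrl pools. C1qc was at 8.61, 7.36, 8.54 and 9.38 in Ctnnb1OE-EC pools and at 9.21, 8.83, 8.08 and 8.43 in Ctrl pools. All 3 were lowest in Ctnnb1OE-EC replicate 2, whose macrophage marker mean of 7.32 was the lowest of the 8 pools. All 3 were highest in Ctnnb1OE-EC replicate 4, whose mean of 9.18 was the highest of the Ctnnb1OE-EC pools. Ctrl replicate 1 had a higher macrophage marker mean, 9.34, but lower values of all 3 chains. Fcna, ficolin A, a lectin-pathway sensor made by mouse macrophages, was at 8.57, 7.34, 7.95 and 8.97 in Ctnnb1OE-EC pools and at 9.33, 8.96, 7.49 and 8.42 in Ctrl pools. Its order was close to that of the macrophage markers, with Ctrl replicate 1 highest in both. The part of macrophage RNA in these values was not tested.

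Mbl2, a mannose-binding lectin of liver origin, was at 6.03, 4.49, 3.16 and 3.90 in Ctnnb1OE-EC pools and at 5.01, 3.99, 4.42 and 5.22 in Ctrl pools. It was highest in Ctnnb1OE-EC replicate 1 and lowest in Ctnnb1OE-EC replicate 3, as the hepatocyte marker mean was. Mbl1, the other mannose-binding lectin, averaged 3.73 ± 0.41 in Ctnnb1OE-EC pools and 3.99 ± 0.14 in Ctrl pools (SD, n = 4 each), below the array median on average.

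Of the 6 convertase components, 0 passed. C3, the protein at the centre of the cascade, was at 10.34, 9.54, 8.64 and 8.72 in Ctnnb1OE-EC pools and at 10.17, 8.69, 8.06 and 9.96 in Ctrl pools. The ranges of the groups overlapped widely (log2 fold change 0.09, 95% interval -1.10 to 1.27, limma adjusted p = 0.973). C4b, whose product joins C2 in the classical convertase, was at 7.76, 6.81, 6.47 and 7.22 in Ctnnb1OE-EC pools and at 7.61, 7.05, 6.16 and 7.69 in Ctrl pools. The groups overlapped here too, and C4b has a near-identical copy in C4a, so its level is uncertain. Cfp, properdin, which stabilises the alternative convertase and comes from leukocytes, was at 8.54, 7.50, 8.43 and 9.29 in Ctnnb1OE-EC pools and at 9.14, 8.87, 7.57 and 8.38 in Ctrl pools. Its highest pool was Ctnnb1OE-EC replicate 4 and its lowest was Ctnnb1OE-EC replicate 2, as for C1q. C2, Cfb (factor B) and Cfd (factor D, a protease also known as adipsin) had log2 fold changes of -0.41, -0.31 and 0.32, with limma adjusted p-values of 0.469, 0.778 and 0.711.

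The terminal components build the pore, and 0 of 7 passed. Hc, which encodes C5, was at 7.54, 7.23, 6.52 and 5.62 in Ctnnb1OE-EC pools and at 7.47, 6.995, 7.02 and 7.45 in Ctrl pools. C6 was at 7.62, 5.65, 6.82 and 8.36 in Ctnnb1OE-EC pools and at 8.12, 7.71, 6.90 and 7.52 in Ctrl pools. C6 followed the pool order of C1q at its ends, whereas Hc was lowest where C6 was highest, in Ctnnb1OE-EC replicate 4. C8b was at 6.10, 5.21, 3.69 and 3.75 in Ctnnb1OE-EC pools and at 5.54, 4.24, 4.50 and 6.09 in Ctrl pools. C8g was at 6.45, 5.35, 4.08 and 4.25 in Ctnnb1OE-EC pools and at 5.91, 4.66, 4.84 and 5.92 in Ctrl pools. Both C8 chains were high in Ctnnb1OE-EC replicate 1 and Ctrl replicates 1 and 4, the 3 pools with the highest hepatocyte marker means. C7, C8a and C9 averaged below the array median, with log2 fold changes of 0.36, -0.18 and -0.22 and limma adjusted p-values of 0.605, 0.865 and 0.878.

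The soluble regulators gave 0 calls of 3 and had the widest spread, with a median within-group SD of 0.94. Cfi, factor I, which cleaves C3b and C4b, was at 7.77, 6.11, 5.71 and 5.47 in Ctnnb1OE-EC pools and at 6.84, 5.68, 5.96 and 7.11 in Ctrl pools. C4bp, its cofactor for C4b, was at 6.40, 4.42, 4.11 and 4.03 in Ctnnb1OE-EC pools and at 5.75, 4.36, 4.31 and 5.33 in Ctrl pools. Both were highest in Ctnnb1OE-EC replicate 1, which had the highest hepatocyte mean of 10.60, and the part of hepatocyte RNA in them was not tested. Serping1, the C1 inhibitor, was at 8.44, 8.05, 7.89 and 7.45 in Ctnnb1OE-EC pools and at 8.52, 7.74, 5.82 and 8.56 in Ctrl pools. Ctrl replicate 3 was lowest for Serping1 and for C1s1, and the mean of 8 stellate cell and fibroblast markers was 5.22 in that pool and 6.50 to 7.09 in the other 7. Neutrophil and monocyte markers (4.17) and B cell markers (4.16) also averaged lowest in that pool.

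Of the 5 receptors, 0 passed, and the best separated was Cd93. Cd93, a lectin-like protein of endothelial cells once described as a C1q receptor, was at 10.37, 10.59, 10.60 and 10.65 in Ctnnb1OE-EC pools and at 9.93, 10.38, 10.35 and 10.09 in Ctrl pools. Ctnnb1OE-EC replicate 1 lay just below Ctrl replicate 2, and the other Ctnnb1OE-EC pools were above every Ctrl pool. The log2 fold change was 0.36 (SE 0.13), with a limma adjusted p of 0.297 and an exact permutation p of 0.0571. C5ar2, a C5a receptor that does not couple to G proteins, was at 11.05, 11.46, 11.10 and 11.00 in Ctnnb1OE-EC pools and at 10.88, 11.23, 11.38 and 11.20 in Ctrl pools. The log2 fold change was -0.02, with a 95% interval of -0.34 to 0.30. C3ar1, the C3a receptor of myeloid cells, was at 6.00, 5.15, 5.67 and 6.74 in Ctnnb1OE-EC pools and at 6.15, 6.25, 4.92 and 5.95 in Ctrl pools. Its ends again fell in pools with high and low macrophage marker means. C5ar1, the other C5a receptor, and Cr2, the C3d receptor of B cells, averaged below the array median and had limma adjusted p-values of 0.913 and 0.643.

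Across the 37 genes, 17 had values more than 1.5 log2 units apart among the pools of at least 1 group. Their highest value was in Ctnnb1OE-EC replicate 1 for 9 genes, in Ctnnb1OE-EC replicate 4 for 5, in Ctrl replicate 1 for 2 and in Ctrl replicate 4 for 1. The 9 were Mbl2, Masp2, C3, C4b, Hc, C8b, C8g, Cfi and C4bp, which are chiefly known as liver plasma proteins, and the 5 were C1qb, C1qc, Cfp, C6 and C3ar1. Masp1, Cd59a, Cd55, C5ar2 and Cd93 varied less, and the pools of 1 group differed by at most 0.64 log2 units in these 5 genes (Masp1 in Ctnnb1OE-EC).

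**Figure D3:**
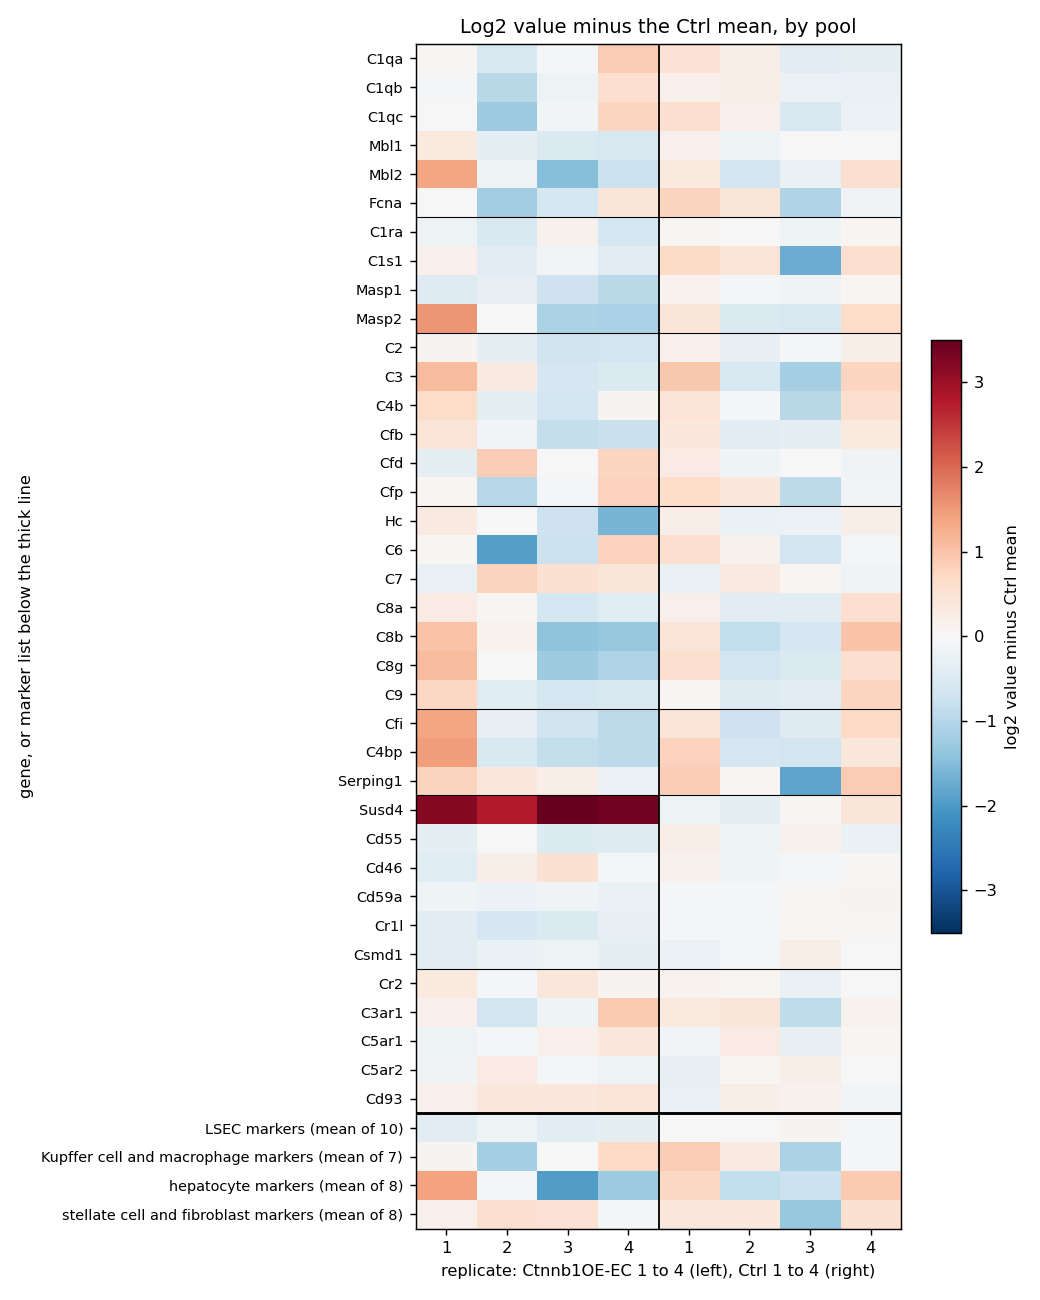
Log2 value minus the Ctrl mean (colour, red above and blue below) for the 37 genes by role and, under the thick line, the means of 4 marker lists (rows), in Ctnnb1OE-EC replicates 1 to 4 (left of the vertical line) and Ctrl replicates 1 to 4 (right). Susd4 is red in all 4 Ctnnb1OE-EC pools. Many of the plasma proteins vary by pool in both groups, and so does the hepatocyte row. Not all share its order: that row is highest in Ctnnb1OE-EC replicate 1, whereas C6 and Cfp are highest in Ctnnb1OE-EC replicate 4.

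Of 19 other complement genes, 0 passed, with 8 means higher and 11 lower and a median log2 fold change of -0.07, against -0.01 over all rows over which the same test ran. At an unadjusted limma p under 0.05, 2 were higher and 1 lower, against 11.5% of all rows in either direction. The 2 with the smallest p were C4a (log2 fold change -0.53, limma adjusted p = 0.0994), below the array median in every pool and near-identical to C4b, and C1qbp (0.45, limma adjusted p = 0.314), a mitochondrial protein first found by its binding to C1q. Of 17 other genes with sushi repeats, 1 was called higher and 1 lower, against 0.535% and 0.385% of all rows. The list was chosen with earlier results of these data known, so these counts are not a result about sushi genes as a group. Selp, P-selectin, which tethers leukocytes to endothelium, was at 11.42, 11.30, 11.45 and 11.53 in Ctnnb1OE-EC pools, against 7.35, 8.48, 8.38 and 9.23 in Ctrl pools. The log2 fold change was 3.07 (limma adjusted p = 0.00359), and the call was lost in 2 of 16 alternatives, at adjusted p-values up to 0.0754. Susd1 was at 5.81, 6.36, 5.60 and 5.26 in Ctnnb1OE-EC pools, against 6.92, 6.86, 6.99 and 6.89 in Ctrl pools. The groups did not overlap, and the log2 fold change was -1.16 (limma adjusted p = 0.0346). This call was lost in 10 of 16 alternatives, among them leaving out any 1 pool other than Ctnnb1OE-EC replicate 2, at adjusted p-values up to 0.163.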

How the data were processed

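Gene expression was measured in 8 LSEC pools on MoGene-2_0-st arrays. The authors deposited log2 values after robust multiarray analysis (RMA) and quantile normalization, with a custom CDF, version 22, that defines genes by Entrez ID. The version of RMA is not given in the sources used here. The deposited values were used as they stand, with no filter. The platform annotation named 24705 of 25428 rows and RefSeq another 564, C3 and Cfd among them, while 159 stayed unnamed. The 2 genotypes were tested in limma (version 3.58.1, R 4.3.3, eBayes, Benjamini-Hochberg over all rows, threshold 0.05), tested on simulated data, and single genes also with the two-sided exact permutation test over 70 assignments. A plain one-way ANOVA (the methods name the test, but the settings of the study's software are not given in the sources used here), another variance prior, array weights, centring, renewed quantile normalization, a filter, the replicate block and left-out pools were the alternatives. Members and lists were chosen with earlier results of these data known. Values by pool are given for members with an unadjusted p under 0.05, with groups that do not overlap, among the 8 highest by mean, or over 1.5 log2 units apart within a group. Of other lists, genes that passed are named, or else the 2 with the smallest p. The number of arrays limits the precision, and probe levels of different genes were not compared. Same-numbered pools were not taken as pairs.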

Additional observations from a re-analysis of the deposited data

Results flagged for a closer look

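Among 74 gene-by-group sets of 4 pools, 3 held a value far from the other 3 pools by Dixon's test at the 95% level, which chance gives in about 1 of 20 sets. C4bp was at 6.40 in Ctnnb1OE-EC replicate 1, against 4.42, 4.11 and 4.03 in the other Ctnnb1OE-EC pools. C9 was at 4.82 in the same pool, against 3.67, 3.48 and 3.56 in the others. The hepatocyte marker mean of that pool was 10.60, the highest of the 8. C1s1 was at 3.91 in Ctrl replicate 3, against 6.32, 6.13 and 6.23 in the other Ctrl pools. The stellate cell and fibroblast marker mean of that pool was 5.22, the lowest of the 8. Its neutrophil and monocyte marker mean (4.17) and B cell marker mean (4.16) were also the lowest. The part of these markers in the 3 values was not tested.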

How the results depend on the processing

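Susd4 stayed past the threshold, in the same direction, in all 16 alternatives, and from 3.11 to 3.36 when 1 pool was left out. Of the 37 complement genes, 1 was called in every alternative but the trended and robust variance prior, which called 2 (Susd4 and Cr1l). Over all rows the count of 234 fell to 20 with the plain one-way ANOVA computed here, which need not be the study's own version, to 61 without Ctnnb1OE-EC replicates 3 and 4, and to between 92 and 223 when 1 pool was left out. With the replicate number as a block it was 86. Deviations of same-numbered pools correlated at 0.253, -0.177, 0.0275 and -0.153, and 1 of the 8 pools correlated best with its own number. These few correlations cannot settle whether same-numbered pools shared a batch. Selp lost its call with this ANOVA (adjusted p = 0.0743) and without Ctnnb1OE-EC replicates 3 and 4 (0.0754).

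For 24 of the 36 complement genes that were not called, the sign of the log2 fold change turned in at least 1 alternative, and none of these values passed the threshold (lowest adjusted p 0.655). Without Ctnnb1OE-EC replicates 3 and 4 the values were -0.24 for C1qa, 0.0046 for Mbl1, 0.60 for Mbl2, 0.76 for Masp2, 0.16 for C4b, 0.19 for Cfb, 0.15 for Hc, 0.16 for C8a, 0.56 for C8b, 0.57 for C8g, 0.15 for C9, 0.54 for Cfi, 0.47 for C4bp, -0.11 for Cd46, -0.24 for C3ar1, -0.13 for C5ar1 and 0.084 for C5ar2. With array weights they were -0.017 for C3, -0.11 for C3ar1 and -0.011 for C5ar1. When 1 pool was left out, the values ran from -0.18 to 0.30 for C1qa, -0.40 to 0.12 for C1qb, -0.47 to 0.21 for C1qc, -0.81 to 0.15 for Mbl2, -0.74 to 0.059 for C1s1, -0.75 to 0.14 for Masp2, -0.30 to 0.41 for C3, -0.38 to 0.14 for C4b and -0.36 to 0.27 for Cfp. They ran from -0.87 to 0.036 for C6, -0.33 to 0.017 for C8a, -0.77 to 0.018 for C8g, -0.53 to 0.036 for C9, -0.64 to 0.13 for Cfi, -0.76 to 0.069 for C4bp, -0.31 to 0.60 for Serping1, -0.093 to 0.23 for Cd46, -0.22 to 0.32 for C3ar1, -0.022 to 0.17 for C5ar1 and -0.12 to 0.048 for C5ar2. The cause was not tested. Keeping only rows whose mean reached the median over rows left out 8 of the 37 genes. Values near the array median, Susd4 in Ctrl among them, may understate a change, because background limits them.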
